A study of Arabidopsis thaliana with 6 samples.

Results

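The genes described here act in the synthesis, breakdown and signaling of gibberellin (GA). They are *GA3ox1* (also called *GA4*, AT1G15550), *GA2ox6* (AT1G02400) and *RGA* (AT2G01570), 3 of the 629 genes in the authors' deposited list of candidate ATH1 targets. They were chosen from this list by locus, with earlier results of these data known. All peaks that touched their listed windows were taken from the peak tables of the 6 libraries. This gave 16 of the 5483 deposited peaks, 12 from ATH1-GFP libraries and 4 from wild-type libraries.

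The libraries came from ChIP-seq with an antibody against GFP on shoot tissue of seedlings, after the leaves and roots were cut off. The ATH1-GFP group (n = 3) was the *ath1-3* mutant carrying *ATH1* fused to GFP under the *ATH1* promoter, from a single transgenic line. ATH1-GFP was therefore present only where the *ATH1* promoter is active, and sites from different cells of the shoot are pooled. The wild-type group (n = 3) carried neither the mutation nor the fusion and gave the background of the precipitation. The labels name Landsberg *erecta* as this wild type and give 2 wk of growth with 16 h of light. The design text and the paper's methods name Columbia, and the methods describe older plants in short days. The paper treats Columbia as the wild type that corresponds to *ath1-3*. If the labels hold, a difference between the groups cannot be told apart from one between accessions. Peaks had been called in each library separately against its own background. The ATH1-GFP libraries held 10194418 to 15584829 tags (mapped reads) after duplicates were removed, and the wild-type libraries 3450182 (replicate 1), 13518524 (replicate 2) and 6689302 (replicate 3). Before this step, wild-type replicate 1 had 17358358 tags, more than wild-type replicate 3 with 10557319. Wild-type replicate 1 kept 19.9% of its tags, against 43.6% to 63.4% in the other libraries.

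GA promotes the elongation of stems and other organs. Enzymes of the GA3ox family make the last step to bioactive GA, and those of the GA2ox family inactivate it. Bioactive GA binds the GID1 receptors, which then bind DELLA proteins, nuclear repressors of growth such as RGA, and bring them to an F-box protein that marks them for destruction. ATH1 is a homeodomain protein of the BELL class. BELL proteins pair with KNOX proteins, which are known to keep GA low in the shoot meristem by repressing synthesis and promoting inactivation.

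Peaks below a false-discovery rate (FDR) of 0.001 were retained, and all 16 peaks at these genes passed. A stretch under peaks of all 3 ATH1-GFP libraries is called a shared region here, and one that also meets no wild-type peak is called a free region. There were 721 shared regions in the genome, of which 309 (42.9%) were free. The 3 genes held 4 of the shared regions, with 1 at *GA3ox1*, 2 at *GA2ox6* and 1 at *RGA*, and only the region at *GA3ox1* was free. By comparison, 436 of the 629 listed genes (69.3%) had a free region. The paper states that targets passed this FDR in all 3 ATH1-GFP replicates and in no wild-type replicate. With overlap scored as here, the regions at *GA2ox6* and *RGA* do not meet that rule, although both genes are listed. None of the 4 regions lay in the window of another listed gene, as was true of 222 of the 448 shared regions that lay in a listed window (49.6%).

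Each ATH1-GFP library had 4 peaks in the 3 windows together, and wild-type replicates 1, 2 and 3 had 0, 3 and 1. Every gene in the target list has a region under peaks of all 3 ATH1-GFP libraries, so at least 1 peak per gene was given in each of these libraries by the choice of genes, and the counts are a description with no test. Over the whole genome, too, the ATH1-GFP libraries had more peaks, 1593, 1226 and 990 in replicates 1, 2 and 3, than the wild-type libraries, with 356, 665 and 487. The wild-type counts in the windows followed the order of the numbers of tags kept in these libraries, not of tags before duplicates were removed. The part of depth in these counts was not tested.

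**Figure D1:**
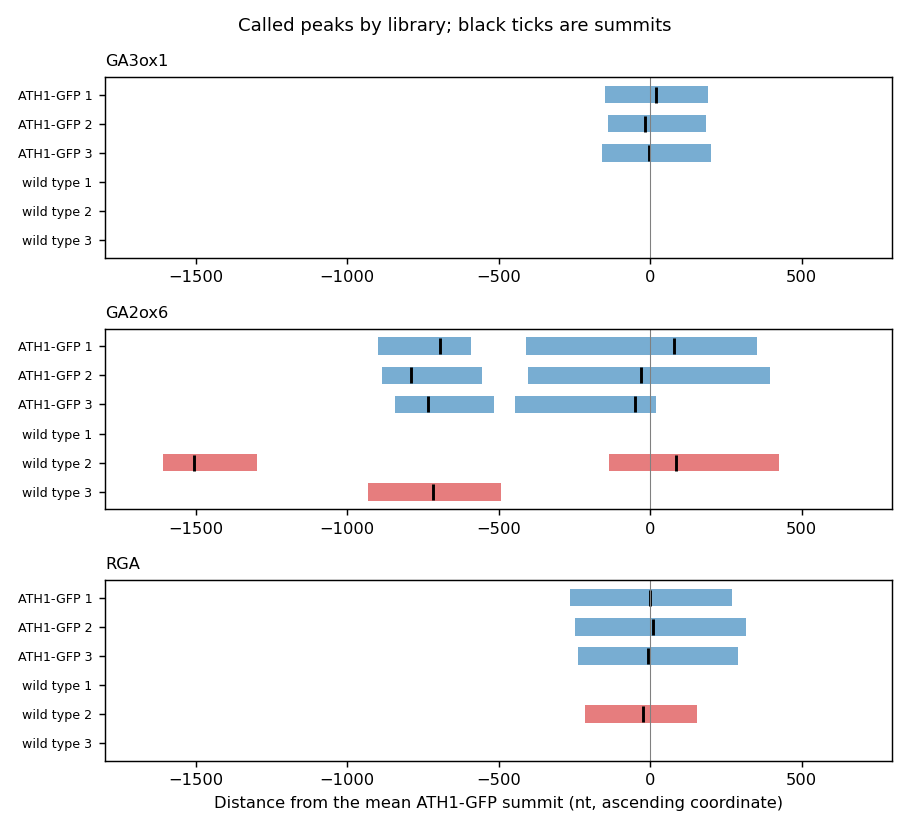
Peaks called in each library at *GA3ox1*, *GA2ox6* and *RGA*, drawn to scale as bars from peak start to peak end (ATH1-GFP in blue, wild type in red) with the summit as a black tick; the x axis is the distance in nt from the mean ATH1-GFP summit, with the genome coordinate ascending to the right, and rows are libraries by replicate number. *GA3ox1* shows no wild-type peak, *RGA* 1 wild-type peak beneath the ATH1-GFP summits, and *GA2ox6* 3 wild-type peaks, of which 2 overlap ATH1-GFP peaks in part or in full.

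*GA3ox1* encodes the GA 3-oxidase that forms bioactive GA in growing vegetative tissue. Its site was compact and was called in ATH1-GFP libraries only. The peaks spanned 5346655 to 5346994, 5346665 to 5346987 and 5346646 to 5347003 on chromosome 1 (TAIR10) in ATH1-GFP replicates 1, 2 and 3. They shared 323 nt, from 5346665 to 5346987. The summits, at 5346823, 5346787 and 5346800, lay within 36 nt of each other, against a median of 107 nt (quartiles 31 and 290 nt) over all shared regions.

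At these summits the pileup, the number of extended tags over the base, was 99, 98 and 111 in replicates 1, 2 and 3. The fold enrichment, the ratio of this pileup to the local background of the same library, was 2.79, 2.83 and 2.12. Replicates 1 and 2 were nearly equal and replicate 3 was lower. The mean was 2.58 ± 0.402 (SD, n = 3), which ranked 225th of the 721 shared regions. The background at this site equaled the genome-wide background of the library in all 3 cases (34.8, 34.0 and 51.9 tags), the lowest background against which a peak was scored. The −log10 q values were 15.7, 15.9 and 9.52, well past the cutoff of 3.

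The *GA3ox1* window held no wild-type peak, even at the FDR of 0.05 used for the deposited lists. What this lack of a peak says depends on depth. In wild-type replicate 2, the lowest pileup that passed the FDR of 0.001 over genome-wide background was 78 tags, or a scaled pileup (tags per 1000000 tags kept) of 5.77, and in replicate 3 it was 47 tags, or 7.03 when scaled. The scaled pileup at *GA3ox1* was 9.47 in ATH1-GFP replicate 1, 9.61 in replicate 2 and 7.12 in replicate 3. All of these values lie above both limits, so signals of this size over genome-wide background were within the calling range of wild-type replicates 2 and 3, although ATH1-GFP replicate 3 exceeded the limit of wild-type replicate 3 by little. In wild-type replicate 1 the lowest called pileup was 31 tags, or 8.99 when scaled, above the value of ATH1-GFP replicate 3. Every deposited peak over genome-wide background passed the FDR of 0.001 in that library. Whether a site as weak as that of ATH1-GFP replicate 3 could be called there was not tested.

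The listed window of *GA3ox1* runs from 5343705 to 5349166, and the center of the site lay 3121 nt from its lower and 2340 nt from its upper end. According to the header of the list, a window adds 3000 nt upstream and 1500 nt downstream to the coding sequence. Strand and coding start were not used here, so the site is not assigned to promoter, exon or UTR. In RefSeq (TAIR10.1), the neighbors of *GA3ox1* along the chromosome are AT1G15540 on the lower side and the pseudogene AT1G15560 on the upper side, and neither is in the list.

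*RGA* encodes a DELLA protein, and its site had the highest values of the 3 genes in each ATH1-GFP library. The peaks spanned 258847 to 259381, 258866 to 259429 and 258876 to 259402 on chromosome 2 in ATH1-GFP replicates 1, 2 and 3, with summits only 16 nt apart at most. The pileup was 143, 129 and 146 tags. The fold enrichment was 3.27, 3.05 and 2.41, with a mean of 2.91 ± 0.447 (SD, n = 3), which ranked 136th of the 721 shared regions. Within the libraries these peaks ranked 142nd of 1593, 154th of 1226 and 150th of 990.

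Wild-type replicate 2 had a peak at the same place, from 258898 to 259268. Its pileup was 96 tags, its fold enrichment 2.11 and its −log10 q 8.02. Its summit lay 23, 31 and 15 nt from those of ATH1-GFP replicates 1, 2 and 3, and its bases covered 73.3% of the shared region. The part left uncovered, 135 of 506 nt, held none of the 3 summits. The scaled pileup was 13.7, 12.7 and 9.37 in replicates 1, 2 and 3 of ATH1-GFP and 7.10 in wild-type replicate 2. The ATH1-GFP values were therefore all above the wild-type value, both in this measure and in fold enrichment, but a single wild-type library gives no test and no spread. The local background was also higher in the ATH1-GFP libraries, at 1.23, 1.22 and 1.15 times the genome-wide value, whereas in wild-type replicate 2 it was at the genome-wide value.

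Wild-type replicates 1 and 3 had no peak at *RGA*. A scaled pileup at the level of wild-type replicate 2 (7.10) was below the lowest one called in replicate 1 (8.99) and hardly above the lowest one called in replicate 3 (7.03). No peak that low was called over genome-wide background in replicate 1, and in replicate 3 it would lie at the limit. Whether depth accounts for the missing peaks was not tested. All 3 scaled ATH1-GFP pileups at *RGA* exceeded both limits, which hold for genome-wide background. In fold enrichment, ATH1-GFP replicate 3 (2.41) was below the lowest value called over that background in wild-type replicate 1 (2.56). Among all shared regions, 77 (10.7%) were, like that at *RGA*, overlapped by a peak of wild-type replicate 2 alone. This compares with 9 for replicate 3 alone and 3 for replicate 1 alone. Without wild-type replicate 2 the *RGA* region was free.

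The *RGA* window runs from 253749 to 260550, and the center of the site lay 5379 nt from its lower and 1422 nt from its upper end. Since either flank of a window built as stated in the header has at least 1500 nt, the center lies in a flank and outside the coding sequence on either strand, if the header's rule holds for this window. The next annotated locus above *RGA* in RefSeq is a long noncoding RNA, AT2G04015, and the next one below is AT2G01560, and neither is in the list.

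*GA2ox6* encodes a GA 2-oxidase, which inactivates GA. It was the only one of the 3 with more than 1 shared region in its window, which was the case for 45 of the 629 listed genes (7.15%). The stronger region lay on chromosome 1 from 488200 to 488623. Here the pileup was 98, 79 and 98 tags in ATH1-GFP replicates 1, 2 and 3 and the fold enrichment 2.36, 2.08 and 1.69 (mean 2.04 ± 0.336, SD, n = 3), which ranked 550th of the 721 shared regions. In replicate 3 this peak ranked only 889th of 990, and its −log10 q of 3.79 was close to the cutoff of 3. At a stricter FDR of 0.0001 it was lost, and with it the shared region.

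The summits at the stronger region, at 488683, 488572 and 488554, were up to 129 nt apart, in contrast to 36 nt at *GA3ox1* and 16 nt at *RGA*, and that of replicate 1 lay outside the stretch common to all 3 libraries. The peaks of replicates 1 and 2 were also long, 763 and 799 nt, against 466 nt in replicate 3. Wild-type replicate 2 had a peak from 488466 to 489029 with its summit at 488688, 5 nt from the summit of ATH1-GFP replicate 1 and 116 and 134 nt from those of replicates 2 and 3. All 3 ATH1-GFP summits lay under this wild-type peak, which covered 158 of the 424 nt of the shared region (37.3%).

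The wild-type peak over the stronger region was as strong as those of the ATH1-GFP group. Its fold enrichment of 2.23 lay between those of ATH1-GFP replicates 1 and 2. Its −log10 q, 11.2, was above all 3 ATH1-GFP values (11.1, 6.36 and 3.79). Its scaled pileup was 8.43, within the ATH1-GFP range of 6.29 to 9.38. In fold enrichment and scaled pileup the wild-type library thus did not stand apart from the ATH1-GFP libraries.

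The weaker region at *GA2ox6*, from 487760 to 488011, was low in all ATH1-GFP libraries, with fold enrichments of 1.78, 1.79 and 1.71 (replicates 1, 2 and 3; mean 1.76 ± 0.0448, SD, n = 3). This was near the lower end, at rank 690 of 721, and the peaks ranked 1513th of 1593, 1166th of 1226 and 862nd of 990 in their libraries. A peak of wild-type replicate 3 covered it entirely, with its summit 21, 74 and 19 nt from the ATH1-GFP summits. The fold enrichment of this wild-type peak, 2.13, and its scaled pileup of 8.37 were above all ATH1-GFP values, whose scaled pileups ranged from 6.35 to 7.18. Wild-type replicate 2 had another peak in the window, from 486995 to 487305, with a fold enrichment of 1.85, where no ATH1-GFP library had one.

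Wild-type replicate 1 had no peak at *GA2ox6*. The scaled pileups of the weaker region were all below the lowest one called in that library, and of those of the stronger region only that of ATH1-GFP replicate 1, 9.38, was above it. The local background was raised at both regions in every library with a peak there, to between 1.10 and 1.20 times the genome-wide value. In those libraries, limits given for genome-wide background are lower than those that held at these regions. The local background of wild-type replicate 1 is not known here, since it had no peak. Peaks covered 13.1% to 18.6% of the window of *GA2ox6* in ATH1-GFP. In wild-type replicates 1, 2 and 3 they covered 0%, 14.4% and 7.23%. For *GA3ox1* the range in the ATH1-GFP libraries was 5.91% to 6.55%, and for *RGA* 7.75% to 8.29%.

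The window of *GA2ox6* runs from 483919 to 489979, and the centers of its stronger and weaker regions lay 1568 and 2094 nt from the upper end. The neighbors in RefSeq are *GPAT2* (AT1G02390) below and AT1G02405 above, and neither is in the list.

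**Figure D2:**
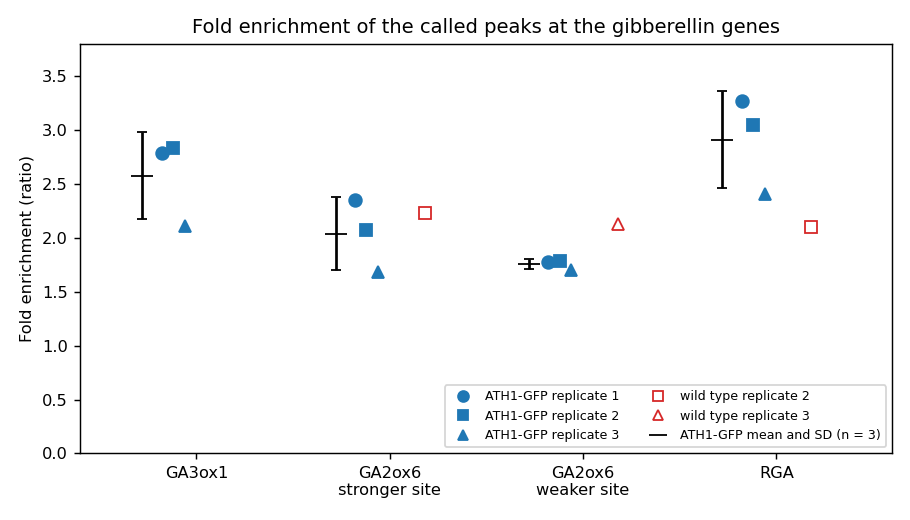
Fold enrichment (ratio, y axis) of the peaks at the 4 shared regions of *GA3ox1*, *GA2ox6* and *RGA* (x axis), with ATH1-GFP replicates as filled blue symbols, wild-type peaks as open red symbols, and the mean and SD of the ATH1-GFP libraries in black. The wild-type peak lies below the ATH1-GFP values at *RGA* (2.11 against 2.41 to 3.27), among them at the stronger region of *GA2ox6* (2.23 against 1.69 to 2.36) and above them at the weaker one (2.13 against 1.71 to 1.79); *GA3ox1* has no wild-type peak.

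Among the ATH1-GFP libraries, the order of fold enrichment at the strongest region of each gene was *RGA*, *GA3ox1*, *GA2ox6* in 3 of 3 libraries. These values take no account of wild-type signal. Wild-type replicate 2 had a peak at the regions of *RGA* (2.11) and *GA2ox6* (2.23) and none at *GA3ox1*. The difference between *RGA* and *GA3ox1* was 0.483, 0.221 and 0.297 in replicates 1, 2 and 3 (mean 0.334 ± 0.135, SD, n = 3). That between *GA3ox1* and *GA2ox6* was 0.434, 0.752 and 0.428 (mean 0.538 ± 0.185, SD, n = 3). That between *RGA* and *GA2ox6* was 0.917, 0.973 and 0.725 (mean 0.872 ± 0.130, SD, n = 3). For each of the 3 comparisons, the exact permutation of signs within libraries (two-sided) gave *P* = 0.25, also after Benjamini-Hochberg adjustment over the 3. A set of 3 pairs allows no lower value. None could pass a threshold of 0.05 in this design. Differences of one sign in all 3 libraries give this *P* whatever their size, so the test cannot decide and the differences are a description.

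At all 4 regions ATH1-GFP replicate 3 was the lowest, as it was in 638 of the 721 shared regions (88.5%). The ratio of replicate 3 to replicate 1 was 0.758 at *GA3ox1*, 0.716 at *GA2ox6* and 0.737 at *RGA*, against a median of 0.817 over all shared regions (quartiles 0.729 and 0.912). The values of the weaker region at *GA2ox6* were nearly equal between libraries, with a ratio of 0.958.

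**Figure D3:**
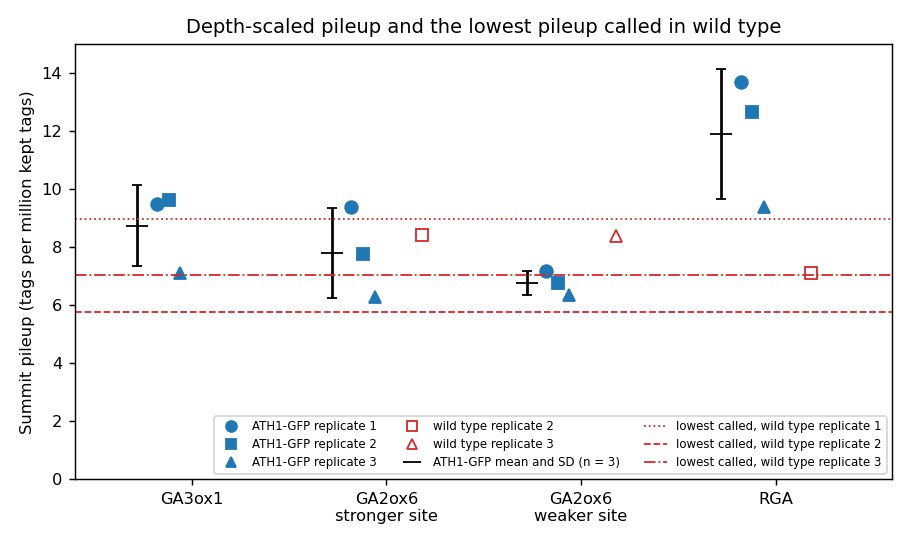
Scaled summit pileup in tags per 1000000 tags kept (y axis) of the peaks at the 4 shared regions (x axis), with symbols as in the plot of fold enrichment, and horizontal red lines for the lowest pileup called at FDR 0.001 over genome-wide background in wild-type replicates 1 (8.99), 2 (5.77) and 3 (7.03). The ATH1-GFP values at *RGA* (9.37 to 13.7) lie above all lines, those at *GA3ox1* (7.12 to 9.61) above the lines of wild-type replicates 2 and 3, and those at the weaker *GA2ox6* region (6.35 to 7.18) below that of replicate 1. The wild-type peak at *RGA* (7.10) lies below the line of replicate 1.

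Set among all shared regions, the mean fold enrichment was above the median of 2.28 at *RGA* and *GA3ox1* (percentiles 81.0 and 68.8) and below it at both regions of *GA2ox6* (percentiles 23.7 and 4.30). Free and overlapped regions had similar medians, 2.29 and 2.28, and the regions overlapped by wild-type replicate 2 alone had a median of 2.14.

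**Figure D4:**
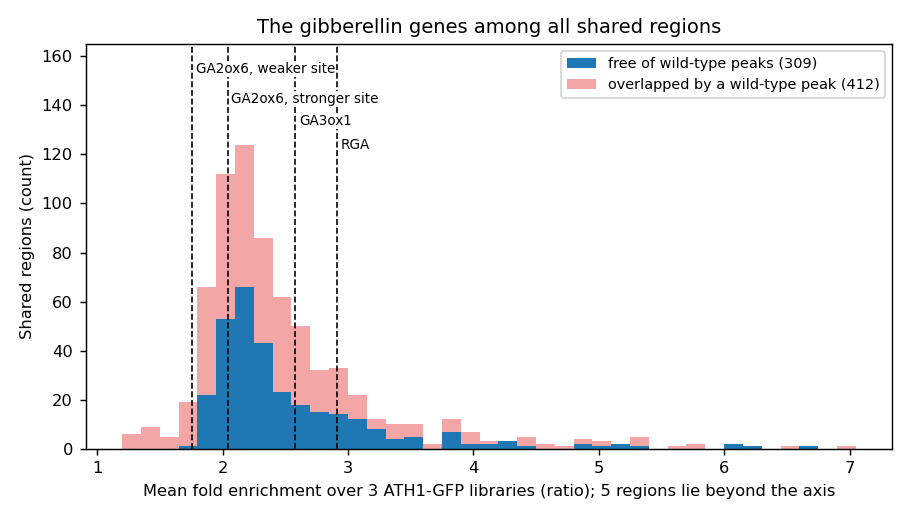
Number of shared regions (y axis) by fold enrichment averaged over ATH1-GFP libraries (x axis, ratio), stacked as 309 regions free of wild-type peaks (blue) and 412 overlapped by one (pink), with 5 regions beyond the axis; dashed lines mark the regions of the 3 genes. *RGA* (2.91) and *GA3ox1* (2.58) lie above the median of 2.28, and the *GA2ox6* regions (2.04 and 1.76) below it.

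Listed genes with the most similar levels were sought by the distance in log2 fold enrichment over the 3 ATH1-GFP libraries, among genes whose strongest region was overlapped by the same wild-type libraries. For *GA3ox1*, out of 428 such genes, these were *ATE1* (AT5G05700), an arginyl-tRNA protein transferase, with 2.71, 2.72 and 2.12 in replicates 1, 2 and 3, and *MAKR6* (AT5G52900), with 2.90, 2.97 and 2.17. For *RGA*, out of 63 genes with a region under a peak of wild-type replicate 2 alone, they were the floral and seed regulator *AP2* (AT4G36920), with 3.39, 3.04 and 2.50, and AT5G01849, with 3.36, 3.19 and 2.42. For *GA2ox6*, out of the same number, they were AT5G35735, annotated as auxin-responsive, with 2.29, 2.20 and 1.74, and AT4G22770, an AT-hook protein, with 2.10, 2.06 and 1.76. With 3 libraries that share their order at most sites, this describes levels only.

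To place the 3 genes in the pathway, 34 GA genes were compiled and all were found in RefSeq by locus. The target list holds 597 of 27444 annotated protein-coding loci (2.18%), and of the 34 GA genes it holds these 3 and no other. The 3 were taken up because they are listed, so nothing is read from this count. None of the 5 genes for the early steps of synthesis (*GA1*, *GA2*, *GA3*, *KAO1*, *KAO2*) was listed, and none of the 5 *GA20ox* genes, whose enzymes supply the substrates of GA3ox. Of the 4 *GA3ox* genes, *GA3ox1* was listed and *GA3ox2*, *GA3ox3* and *GA3ox4* were not. Of the 7 *GA2ox* genes, only *GA2ox6* was listed. None of the 3 GID1 receptor genes was listed, nor *SLY1* and *SNE*, which encode F-box proteins that act on DELLA proteins, nor *SPY* and *SEC*, which encode enzymes that add sugars to DELLA proteins, nor *SCL3*, which encodes a GRAS protein that opposes DELLA activity. Of the 5 DELLA genes, *RGA* was listed and *GAI*, *RGL1*, *RGL2* and *RGL3* were not. Peaks at genes outside the list were not analysed here, and a gene can be missing from the list for lack of a peak in a single library.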

How the data were processed

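The authors mapped reads to TAIR10 (Bowtie2 and SAMtools are named in the submitters' notes) and called peaks in each library with MACS 2.0.10.20130915, without a control library. Per the file headers, MACS extended each tag to 300 nt, kept 1 tag per position, and took q below 0.05 as its cutoff with 90000000 as the genome size. The deposited fold enrichment is a ratio of summit pileup to background in the same library. The deposited pileup is a signal in tags, not scaled for depth, and the deposited −log10 p and −log10 q values come from the same calls. In the authors' target list, fold enrichment and −log10 q are averages over libraries; only its loci, descriptions and windows were used, beside a check of the means.

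Peaks with an FDR below 0.001 were intersected (minimum 1 bp). A gene took the value of its strongest free region, or failing that of its strongest shared one. Background was recovered as (pileup + 1)/fold enrichment − 1, and genome-wide background as tags kept × 300/90000000, and no peak had a lower one. The lowest called pileup was taken over peaks within 1% of it. Scripts (Python 3.11.15, numpy 2.4.6, pandas 2.3.3) were tested on simulated data, and differences between genes were tested by exact permutation. A planned test of peak counts between groups is not reported, because listed genes were chosen by their ATH1-GFP peaks. Alternatives were another FDR, overlap, number of libraries, exclusion rule, position rule and measure, and the omission of each library. The genes, gene lists and tests were chosen with earlier results of these data known. Named by rule were the 3 genes, listed genes sharing their regions (none), listed GA genes, and the 2 listed genes most similar to each. Windows of unlisted GA genes and motifs, though planned, were not analysed here, since the reference (RefSeq TAIR10.1, with 620 of the 629 listed loci) was used for names and neighbors only. The labels call the libraries biological replicates, each from its own batch of seedlings, but not whether these were grown apart.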

Additional observations from a re-analysis of the deposited data

How the results depend on the processing

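The count of 1 gene with a free region (*GA3ox1*) among the 3 genes was the same under every setting tried except 3. Windows of the unlisted GA genes were not analysed, so a count over all 34 GA genes equals it by construction. The count was 2 where a wild-type peak excluded a region only when it covered the center of that region, which freed *GA2ox6*. Leaving out 1 library at a time gave counts from 1 to 3. The count was 3 without wild-type replicate 2, which freed *RGA* and the stronger region of *GA2ox6*. It was 2 without wild-type replicate 3, which freed the weaker region of *GA2ox6*. At an FDR below 0.0001 *GA2ox6* had no shared region and no value, while *GA3ox1* and *RGA* kept theirs. The differences between genes kept their sign in log2 units, in tags at the summit and in percentiles within the library. Without each ATH1-GFP replicate in turn, they ranged from 0.259 to 0.390 for *RGA* and *GA3ox1*, from 0.431 to 0.593 for *GA3ox1* and *GA2ox6*, and from 0.821 to 0.945 for *RGA* and *GA2ox6*. Neither the labels nor the methods say that equal replicate numbers mark a shared batch. The ATH1-GFP peak counts do not vary, so the pairing could not be checked. The mean difference in peaks in the windows was 2.67, which a replicate block cannot change, and 2 to 3.5 with 1 library left out. No test of it is given, because the choice of genes fixed the ATH1-GFP peaks. Among the wild-type libraries, the lowest scaled pileup called over genome-wide background was highest in replicate 1. This library had the fewest tags kept and the smallest share of its tags kept (19.9%). No scaled pileup under 8.99 was called there over that background.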

Other observations

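The descriptions in the authors' deposited list mention a response to gibberellin or the GRAS family, to which DELLA proteins belong, for 6 further listed genes, which were picked after the list was seen. Of these 6, 4 had a free region, a share near that of all listed genes (436 of 629, 69.3%). The highest fold enrichment was at *AtHB23* (AT1G26960), a homeodomain gene, with 4.19 in ATH1-GFP replicate 1, 3.57 in replicate 2 and 2.74 in replicate 3 (mean 3.50 ± 0.726, SD, n = 3), above *RGA* in each library. *GASA5* (AT3G02885), of a family of small peptides whose genes often respond to GA, had 2.24, 2.82 and 2.18 (mean 2.41 ± 0.352, SD, n = 3), and its region was overlapped by a peak of wild-type replicate 2 alone. The region at *SCL13* (AT4G17230), a GRAS gene, was overlapped by the same library, with a mean of 2.14 ± 0.239 (SD, n = 3). The lowest mean was at another GRAS gene, AT5G66770, with 1.83 ± 0.0853 (SD, n = 3) in a free region. The free regions at the RING gene AT4G19700 and the bHLH gene AT2G31730 had means of 2.21 ± 0.157 and 2.10 ± 0.383 (SD, n = 3 each).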
